A study of Mus musculus with 16 samples.

Results

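Counts of 10 genes of the lung epithelium were examined in 16 mouse osteosarcomas. The genes were taken by name from the deposited table of 25054 genes, and all 10 were found. They are 6 alveolar genes, 3 club cell genes and *Nkx2-1*, which is expressed in both cell types. One tumor, from mouse N25, carries lung as its site in the labels. One KO tumor, Massa, has no site in the labels and was singled out earlier for its lung genes, so its levels are given as a description. Each of the 10 genes had between 1913 and 305437 counts in N25 and between 49 and 1851 in Massa, while 8 of them had at most 35 counts together in any of the other 14 tumors. The 2 tumors differed in makeup: club cell genes gave 79.2% of the alveolar plus club counts in N25 and 40.4% in Massa.

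The surface of the lung alveolus is lined by flat type I cells, which serve gas exchange, and by cuboidal type II cells, which make and store surfactant in lamellar bodies. Surfactant is a film of lipids and proteins that lowers surface tension. The small airways of the mouse hold many club cells, secretory cells that release secretoglobins and metabolize foreign compounds, beside ciliated cells. The transcription factor NKX2-1 acts in alveolar and club cells, is also used in the thyroid, and binds the promoters of surfactant and secretoglobin genes. Osteosarcoma spreads mainly to the lung, where its nodules lie among these cells.

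All 16 tumors were osteosarcomas of mice with the genotype OsxCreERT2+/-;p53fl/fl;Rb1fl/fl, so that both groups had floxed *p53* and *Rb1*. The 8 tumors labeled KO also carried Arid1afl/fl and came from 8 mice, and the 8 WT tumors came from 4 mice. Every mouse was injected with tamoxifen (400 ug/g) at 1 month of age, and was over 6 months old at study, with males and females in the set. The Cre recombinase is driven by osterix and active only with tamoxifen, so it acts in cells of the bone lineage. By the codes in the labels, N42 gave 4 WT tumors, N43 gave 2, and N215 and N25 gave 1 each. The sites of the 7 WT tumors other than N25 were spine, pelvis, femur, limb or shoulder, called bone sites here. The tumors labeled KO have no site in the labels.

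Total counts lay between 1109487 and 15059640 in the KO tumors and between 7806160 and 16962329 in WT. Massa was the shallowest library with 1109487 counts, and N25 had 11676275. Values are given as counts or as CPM, counts scaled to the TMM-normalized library size. At 3 counts a gene was at 6.69 CPM in Massa, at 4.03 CPM in Grilka and at 0.146 to 0.839 CPM in the others, so low values were seen less well in those 2 tumors. *Arid1a*, counted over the whole gene, was at 107 to 270 CPM in KO and 125 to 236 CPM in WT (log2 fold change 0.16, standard error 0.22, edgeR adjusted p = 0.715). A count over the whole gene does not show the floxed exons by themselves, so the groups are called by their labels. In the bulk RNA of a tumor, fewer cells of a type and less RNA per cell cannot be told apart.

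The surfactant genes were absent or nearly absent outside N25 and Massa. *Sftpc*, the gene of surfactant protein C and a marker of type II cells, lies on chromosome 14 of GRCm38 (70520949 to 70524081). It had 37353 counts in N25 and 0 to 2 (median 0) in the 7 bone-site WT tumors. It had 1440 counts in Massa and 0 or 1 in the other 7 KO tumors. Neither N25 nor Massa overlapped with the rest of its group. Against the limit of 3 counts in the shallowest library of the others, *Sftpc* was at least 7085-fold higher in N25 than at bone sites, and at least 797-fold higher in Massa than in the other KO tumors.

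*Sftpb*, whose product organizes the surfactant film, had 32619 counts in N25 and 0 to 6 (median 1) at bone sites. In Massa it had 718 counts against at most 3 in the other KO tumors. *Sftpa1* (chromosome 14, 41131782 to 41136452) and *Sftpd* (chromosome 14, 41172214 to 41185149) encode collectins, surfactant proteins that bind microbes, and are near neighbors in the genome. *Sftpa1* had 21326 counts in N25 and 0 to 31 (median 5) at bone sites, and 556 in Massa against at most 4. *Sftpd* had 5240 counts in N25 and 0 in all 7 bone-site tumors, and 70 in Massa. The only other tumor with *Sftpd* counts was the KO tumor Prince, with 17. The level of *Sftpb* in N25 was 6948 times, and that of *Sftpa1* 886 times, the highest bone-site tumor in CPM.

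*Lamp3* encodes a membrane protein of the lamellar body and is also a marker of mature dendritic cells. It had 2664 counts in N25 and 0 to 3 at bone sites, with 54 in Massa and at most 2 in the other KO tumors. The 10 genes of the mature dendritic cell list summed to 240 CPM in N25 and 165 CPM in Massa, against 183 to 236 CPM at bone sites and 86.0 to 298 CPM in the other KO tumors. N25 was thus just above the bone-site range and Massa inside the KO range. In N25, edgeR called 1 of the 10 genes (*Ccl17*) higher and 1 (*Cacnb3*) lower than at bone sites, beside 7.23% and 0.584% of all genes. *Ccl17*, at most at 0.253 CPM at bone sites, passed the filter on low counts only through N25 and so had to differ.

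*Ager*, which encodes the receptor RAGE and is the most used marker of type I cells, was the only one of the 10 genes with counts in all 16 tumors. It had 6218 counts in N25, where its level of 401 CPM was 23.3 times the highest bone-site tumor. In Massa it had 315 counts, and 703 CPM was 95.1 times the highest of the other KO tumors.

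The club cell gene *Scgb1a1*, whose secretoglobin is the most abundant protein of club cell secretions, was the most abundant of the 10 genes in both tumors. It lies on chromosome 19 (9083636 to 9087958). It had 305437 counts in N25 and 0 to 7 (median 0) at bone sites, and 1851 in Massa against at most 3 in the other KO tumors. *Scgb3a2*, another airway secretoglobin, behaved differently in the 2 tumors. It had 35053 counts in N25 and at most 1 at bone sites, while Massa had only 49 counts against at most 2 in the other KO tumors. In Massa this was at least 27.1-fold above the limit of the other KO tumors.

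*Cyp2f2*, a cytochrome P450 with which club cells metabolize compounds such as naphthalene, had 59865 counts in N25 and 0 to 51 (median 8) at bone sites. It had 239 counts in Massa. It was the only member that was abundant in another tumor, with 5104 counts in the KO tumor Prince, and 0 to 8 counts in the other 6 KO tumors. Massa and Prince could not be put in order for *Cyp2f2*: Massa was at 533 and Prince at 424 CPM on the TMM scale, but at 215.4 and 339 CPM when scaled to total counts.

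*Nkx2-1* lies on chromosome 12 (56531958 to 56536908). It had 1913 counts in N25 and 409 in Massa, and 0 counts in all of the other 14 tumors. Of the 10 genes it was the only one with 0 counts in all 14. Of the genes of the thyroid, another organ that uses this factor, 1 of 5 tested was called higher in N25 than at bone sites by edgeR, beside 7.23% of all genes. It was *Iyd*, an iodotyrosine deiodinase named after its value was seen, with 109 counts in N25 and 1 in Massa. *Iyd* was at most at 0.0505 CPM at bone sites. It was 1 of 2 tested thyroid genes that passed the filter on low counts only through N25, and so had to differ. The 7 listed thyroid genes with rows in the table summed to 11.04 CPM in N25 and 4.46 CPM in Massa, against 5.25 to 15.99 CPM at bone sites, and *Tg*, the gene of thyroglobulin, had 24 and 1 counts.

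**Figure D1:**
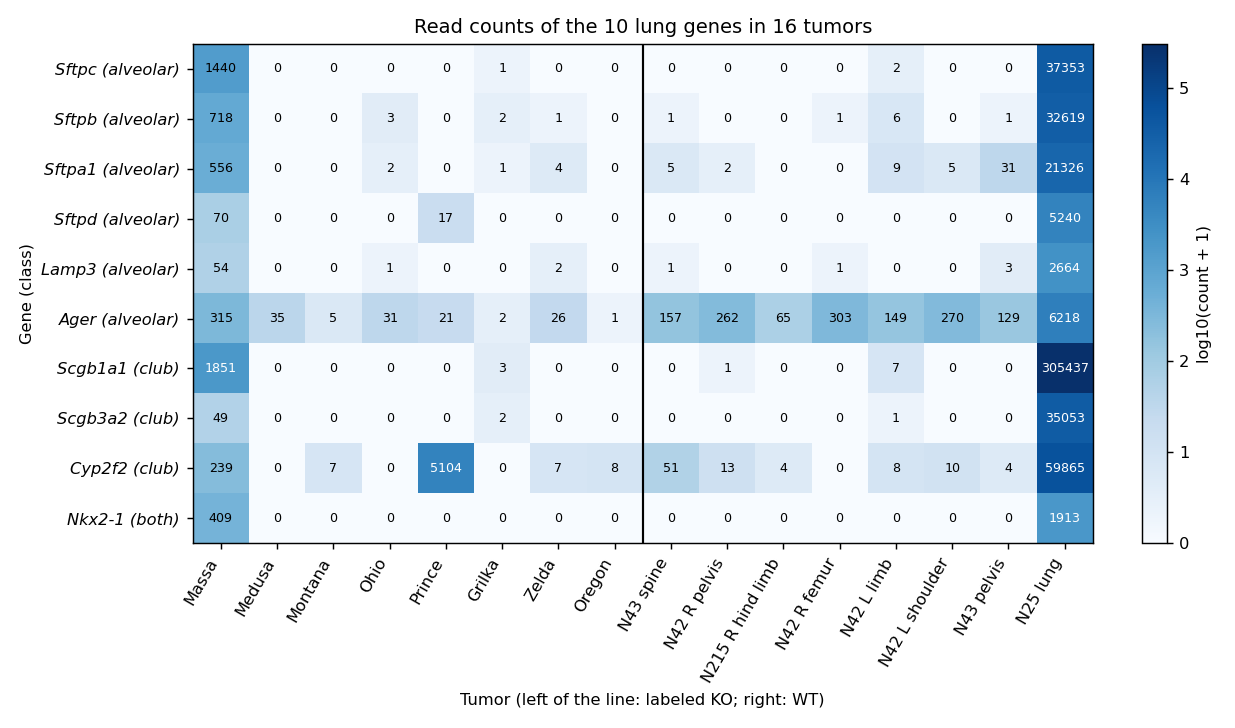
Read counts of the 10 genes (rows, with their class) in each of the 16 tumors (columns; the 8 labeled KO are left of the line and the 8 WT right of it), colored by log10 of the count plus 1. N25 and Massa hold nearly all counts, *Ager* has counts in all 16 tumors, and *Cyp2f2* has 5104 counts in Prince.

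Together the 10 genes took 4.35% of all counts in N25, 0.514% in Massa and 0.0341% in Prince, where 5104 of the 5142 counts were *Cyp2f2*. They took at most 0.00205% in any other tumor. Without *Ager* and *Cyp2f2*, the other 8 genes had 441605 counts in N25, 5147 in Massa and 0 to 35 (median 5.5) in the other 14 tumors, of which 4 had 0. The 35 counts were in the pelvis tumor of N43, where 31 were *Sftpa1*. The next highest was the left limb tumor of N42 with 25 counts, which were spread over *Sftpc* (2), *Sftpb* (6), *Sftpa1* (9), *Scgb1a1* (7) and *Scgb3a2* (1).

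The promoters of 6 of the 10 genes were found in RefSeq (GRCm38.p6), and were searched on both strands for CTCAAG and CAAGTG, letters of the sites that NKX2-1 is known to bind, because these genes were high in the same tumors as *Nkx2-1*. The promoters of *Sftpc*, *Sftpd*, *Scgb1a1* and *Scgb3a2* were not analysed here. CTCAAG was found in the promoters of *Sftpb* and *Sftpa1*, and CAAGTG in those of *Sftpa1* and *Cyp2f2*. Neither was found in those of *Lamp3*, *Ager* or *Nkx2-1*. The 3 promoters with a match are shown up to the annotated start of the gene, with the matches in capitals. A match on the other strand reads CACTTG.

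*Sftpb* (chr6:72304360-72304609, plus strand): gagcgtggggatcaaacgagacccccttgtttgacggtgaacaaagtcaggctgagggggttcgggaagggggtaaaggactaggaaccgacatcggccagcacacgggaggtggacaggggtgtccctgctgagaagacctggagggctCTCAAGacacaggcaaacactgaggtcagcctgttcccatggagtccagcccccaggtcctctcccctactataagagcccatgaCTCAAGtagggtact

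*Sftpa1* (chr14:41131538-41131781, plus strand): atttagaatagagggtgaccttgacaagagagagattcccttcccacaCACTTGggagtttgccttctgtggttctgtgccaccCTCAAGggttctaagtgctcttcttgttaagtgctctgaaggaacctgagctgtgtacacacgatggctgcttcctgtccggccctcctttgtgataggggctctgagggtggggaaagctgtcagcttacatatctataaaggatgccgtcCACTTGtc

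*Cyp2f2* (chr7:27119705-27119908, plus strand): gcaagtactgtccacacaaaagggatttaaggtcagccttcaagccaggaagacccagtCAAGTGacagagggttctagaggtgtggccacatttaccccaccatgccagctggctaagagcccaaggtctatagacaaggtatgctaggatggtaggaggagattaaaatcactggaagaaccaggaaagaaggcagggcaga

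The matches begin 100 and 15 bases before the RefSeq start in *Sftpb*. In *Sftpa1* CTCAAG begins 166 bases, and CAAGTG 202 and 14 bases, before the start, and in *Cyp2f2* CAAGTG begins 191 bases before it. No match of one motif overlapped a match of the other. Such short strings are common: of 32851 RefSeq promoters of the same 300 bases, 15.9% held CTCAAG, 13.6% held CAAGTG and 26.4% held either. The matches are given as a description of the sequence and are not evidence of binding.

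The first comparison was between the lung tumor of N25 and the 7 bone-site tumors within WT. All 10 genes were higher in N25 than in each bone-site tumor, as were 25% of all genes in the table. These values of N25 were known when the genes were chosen, so the fit describes them and is not independent evidence. In edgeR, 10 of the 10 genes were past the adjusted p threshold of 0.05 with higher expression in lung, where 7.23% of the 21228 genes tested were called higher and 0.584% lower. The log2 fold changes ran from 5.18 (standard error 0.425, adjusted p = 0.000227) for *Ager* to 18.04 (standard error 1.15, adjusted p = 8.99e-05) for *Scgb1a1*. The adjusted p was lowest for *Scgb3a2* (2.44e-06) and highest for *Nkx2-1* (0.00555). Of the 10 genes, 7 passed the filter on low counts only through N25 and so had to differ, and their fitted fold changes depend on the prior count. Without the filter 10 of 10 were again called higher, beside 6.42% of all genes tested.

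With 1 lung tumor, the test assumes that a lung tumor varies as the bone-site tumors do. The bone-site tumors came from 3 mice. With counts summed per mouse, 9 of 10 genes were called, *Sftpa1* having an adjusted p of 0.0565 in edgeR, and 180 genes were called in all. Whether these counts came from lung tissue sampled with the tumor was not tested.

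The relation of club to alveolar genes was then compared between N25 and Massa. The level of a single gene cannot be compared well between these libraries, because the result depends on the scaling. *Sftpc* was 1.33 times as high in Massa as in N25 by TMM-normalized CPM, but 0.406 times as high per total count. Ratios of genes within one library do not depend on this, and are used below. Each tumor is 1 sample, so no test was made, and the intervals (95%, exact) cover counting error only.

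The share of club cell genes was higher in N25 than in Massa. The 3 club cell genes had 400355 counts and the 6 alveolar genes 105420 in N25, a club share of 79.2% (79.0 to 79.3%, exact Clopper-Pearson interval). In Massa they had 2139 and 3153 counts, a club share of 40.4% (39.1 to 41.8%). There were thus 3.80 club counts per alveolar count in N25 and 0.678 in Massa. Because club cells also express *Sftpa1*, *Sftpb* and *Sftpd*, the share was computed without them, giving 89.6% in N25 and 54.2% in Massa, and without *Cyp2f2* it was 76.4% and 37.6%. Per kilobase of exon, it was 91.5% and 65.5%. The share was higher in N25 in each of these settings, but it was above 50% in Massa in the settings without the 3 surfactant genes and per kilobase.

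Relative to *Sftpc*, all 3 club cell genes were lower in Massa. *Scgb1a1* had 8.18 counts per *Sftpc* count in N25 (8.09 to 8.27) and 1.29 in Massa (1.199 to 1.38), a ratio 6.36 times higher in N25. *Cyp2f2* had 1.60 in N25 (1.58 to 1.62) and 0.166 in Massa (0.144 to 0.190), 9.66 times higher in N25. *Scgb3a2* differed most, with 0.938 in N25 (0.925 to 0.952) and 0.0340 in Massa (0.0251 to 0.0452), 27.6 times higher in N25. The club cell genes therefore did not keep one ratio to each other in the 2 tumors.

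The type II genes differed less. Per *Sftpc* count, *Sftpb* was at 0.873 in N25 and 0.499 in Massa, *Sftpa1* at 0.571 and 0.386, *Lamp3* at 0.0713 and 0.0375, and *Sftpd* at 0.140 and 0.0486. These ratios were 1.48 to 2.89 times higher in N25. The type I gene *Ager* went the other way, with 0.166 in N25 (0.162 to 0.171) and 0.219 in Massa (0.193 to 0.247). So did *Nkx2-1*, and by more: it had 0.0512 counts per *Sftpc* count in N25 (0.0489 to 0.0536) and 0.284 in Massa (0.254 to 0.317), a ratio 5.55 times higher in Massa. For all 9 genes set against *Sftpc*, the intervals of the 2 tumors did not overlap, but they cover counting error only. The share of all genes that would differ in this way was not computed, so no conclusion about the members is drawn from it.

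**Figure D2:**
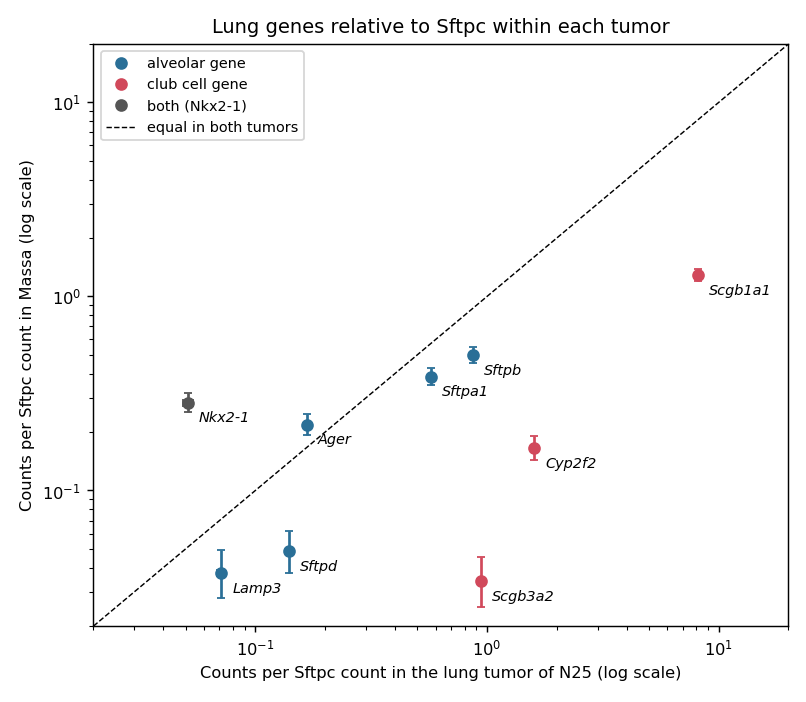
Counts of each gene per *Sftpc* count in N25 (horizontal, log scale) and in Massa (vertical, log scale), with 95% exact intervals that cover counting error only; the dashed line marks equal ratios. The 3 club cell genes lie farthest below the line, the type II genes closer to it, and *Ager* and *Nkx2-1* above it.

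Per kilobase of exon, the level order in N25 was *Scgb1a1*, *Scgb3a2*, *Sftpc*, *Cyp2f2*, *Sftpb*, *Sftpa1*, *Ager*, *Sftpd*, *Lamp3* and *Nkx2-1*, and no counting intervals of neighbors overlapped. *Scgb1a1* was at 641674 counts per kilobase and *Nkx2-1*, the lowest, at 673. In Massa the order was *Scgb1a1*, *Sftpc*, *Sftpb*, *Sftpa1*, *Ager*, *Nkx2-1*, *Cyp2f2*, *Scgb3a2*, *Sftpd* and *Lamp3*, from 3889 to 16.1 counts per kilobase. The intervals of *Ager*, *Nkx2-1* and *Cyp2f2* overlapped there, so these 3 could not be put in order. *Scgb3a2* was next to the top in N25 and below 7 other genes in Massa, and *Nkx2-1* was last in N25 and within the unordered group of 3 in the middle of the order in Massa.

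The wider lists of cell type genes hold the 10 genes as well, so they are not independent of them. In these lists the airway genes lay lowest in Massa relative to N25, while type II genes were close to all genes. Each gene with at least 100 counts in N25 was set against the summed alveolar counts of its own library, and the value in Massa was divided by that in N25. Over all 11569 such genes the median of this ratio was 0.718, with 7724 genes below 1 and 3845 above 1. The 19 type II genes had a median of 0.707, close to that of all genes, with 14 below 1. Among them, the phosphate transporter gene *Slc34a2* was at 0.801 and *Abca3*, the lipid transporter of the lamellar body, at 0.198.

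The 16 type I genes had a median of 1.37, with 9 above 1 and 7 below. *Emp2*, a membrane protein of type I cells, was at 6.60, with 1240 counts in Massa and 6282 in N25, and *Clic5* at 2.21, whereas *Vegfa* was at 0.682. The summed level of the type I list was 9975 CPM in Massa and 4223 CPM in N25, against 248 to 713 CPM at bone sites and 141 to 2077 CPM in the other KO tumors, where Prince was highest. The type II list summed to 8833 CPM in Massa and 10055 CPM in N25, against 185 to 324 CPM at bone sites and 130 to 670 CPM in the other KO tumors. These sums are on the TMM scale, and the order of Massa and N25 can change with the scaling. Each of the 2 tumors is therefore set only against the others of its group, and not against each other.

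The airway lists were low in Massa relative to N25. The 18 club and secretory airway genes had a median of 0.199, with 17 below 1. *Cbr2*, a carbonyl reductase of club cells, was at 0.335 and *Hp*, the gene of haptoglobin, at 0.196, and *Fmo2* at 1.34 was the only one above 1. *Bpifa1*, which encodes a secreted protein of the upper airway and was named after its value was seen, had 877 counts in N25 and 0 in Massa. The 15 ciliated cell genes had a median of 0.255, with 14 below 1. *Dnah5*, an axonemal dynein, was at 0.0668 with 4002 counts in N25 and 8 in Massa. *Sec14l3* was at 1.34 and was the only gene of the ciliated list above 1. A 0 in Massa was read as not detected at this depth.

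**Figure D3:**
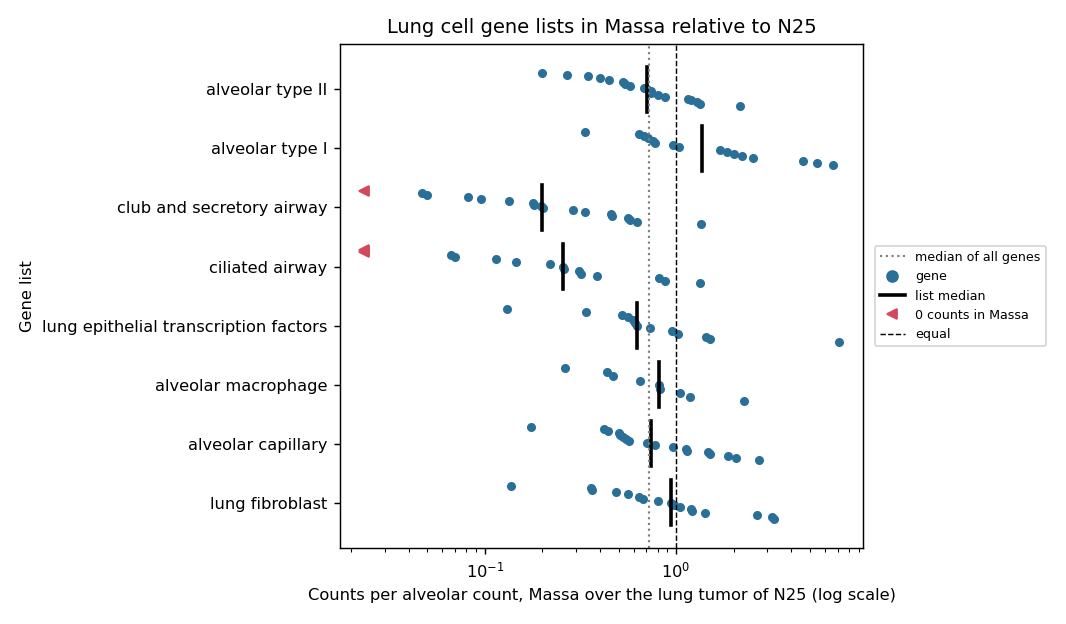
Counts per alveolar count in Massa divided by those in N25 (log scale), 1 point per gene with at least 100 counts in N25, in 8 lists; black bars are list medians and the dotted line is the median of all genes (0.718). The club and ciliated lists lie lowest (medians 0.199 and 0.255), and the type I list highest (1.37).

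Among the 14 lung epithelial transcription factors, *Nkx2-1* had by far the highest ratio. Of the 13 with at least 100 counts in N25, the median was 0.622, and *Nkx2-1* was at 7.15, with the next highest at 1.503. *Cebpa*, which acts in type II cells, was at 1.03. Genes of epithelial cells in general were present in both tumors: the 16 genes of that list, which includes *Krt8* and *Cdh1*, summed to 1179 CPM in N25 and 1133 CPM in Massa, against 2.72 to 43.7 CPM at bone sites. Prince was higher with 2673 CPM.

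In the fit of lung against bone site, 16 of 19 type II, 10 of 16 type I, 15 of 18 club and 14 of 15 ciliated genes were called higher in N25 and none lower, beside 7.23% and 0.584% of all genes. Of the tested genes of these lists 9, 2, 7 and 5 passed the filter only through N25 and so had to differ. The median log2 fold changes of the lists were 10.29, 4.70, 8.52 and 7.31, against −0.11 over all genes tested. Massa was chosen for these genes, so the next counts only describe its levels: 9 of the 10 members were more than 10 times as high in Massa as in any other KO tumor with at least 10 counts, where 0.427% of all genes were. The same held for 11 of 19 type II, 7 of 16 type I, 6 of 20 club and 2 of 15 ciliated genes. In N25 against the other WT tumors it held for 12, 8, 15 and 13 of these genes, beside 3.88% of all genes.

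The study's own contrast, KO against WT, was examined next. Of the 10 genes only *Ager* passed the filter on low counts, and it was not called, where edgeR called 4.01% of 15413 genes, 1.86% higher and 2.15% lower in KO. Without the filter 0 of 10 members were called by edgeR, beside 2.71% of 25054 genes. Their adjusted p ran from 0.295 for *Scgb3a2* (log2 fold change −4.85, standard error 2.73) to 0.969 for *Sftpc*, and none of the 10 had an unadjusted p under 0.05. DESeq2 called 1 of 10, *Ager*, beside 2517 of 25054 genes, and gave no adjusted p for 6 of the others. In all 10 genes DESeq2 replaced the counts of N25 and Massa as outliers, for example 305437 by 0 for *Scgb1a1* in N25. Each group held 1 tumor with these genes, N25 in WT and Massa in KO. Two-sided exact permutation tests of log2 CPM over the 16 tumors gave unadjusted p from 0.721 to 1.0 for the 9 genes other than *Ager*. With 1 such tumor in each group, known beforehand, these tests could hardly give a small p, so no conclusion is drawn from them. These tests treat the WT tumors of one mouse as independent.

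*Ager*, the only member that passed the filter in this contrast, was also compared without N25 and Massa. It was at 6.47 to 17.2 CPM (median 8.63) in the 7 bone-site WT tumors and at 0.280 to 7.39 CPM (median 1.76) in the 7 other KO tumors. Only the KO tumor Medusa, with 7.39 CPM, reached the range of the bone-site tumors. Over these 14 tumors, mean log2 CPM was 1.05 in KO and 3.36 in WT (two-sided exact permutation test, unadjusted p = 0.00175, n = 7 and 7). This test was added after the values were seen, and it treats the 7 WT tumors, which came from 3 mice, as independent. In edgeR without N25 and Massa, *Ager* was lower in KO (log2 fold change −2.07, adjusted p = 0.0305), where 3.25% of 15720 genes were called lower.

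This result depended on which tumors were in the fit and on how mice were treated. With all 16 tumors the log2 fold change in edgeR was 0.53 (standard error 1.46, adjusted p = 0.869), while mean log2 CPM was 1.92 lower in KO (two-sided exact permutation test, p = 0.184), so the 2 measures differed in sign. DESeq2, which replaced the *Ager* counts of both N25 (6218 by 112) and Massa (315 by 2) as outliers, gave −1.94 (adjusted p = 0.000861). Without Massa alone edgeR gave −4.53 (adjusted p = 0.0301), and without N25 alone 2.99 (adjusted p = 0.2). With counts summed per mouse and both tumors left out, also added after the values were seen, it gave −1.81 (adjusted p = 0.565, unadjusted p = 0.0257), with 3 WT mice.

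The *Ager* gene (chromosome 17, 34597862 to 34600936) starts 461 bases after the end of *Pbx2* on the same strand, so the counts of *Pbx2* were set beside it. *Pbx2*, a homeobox gene expressed in many tissues, was at 28.5 to 49.6 CPM at bone sites and at 16.1 to 38.9 CPM in the other 7 KO tumors, with 34.2 CPM in N25 and 26.8 CPM in Massa. There were 0.149 to 0.423 *Ager* counts per *Pbx2* count at bone sites, 0.00943 to 0.190 in the other KO tumors, 11.7 in N25 and 26.3 in Massa. The part of *Pbx2* transcripts in the *Ager* counts was not tested.

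**Figure D4:**
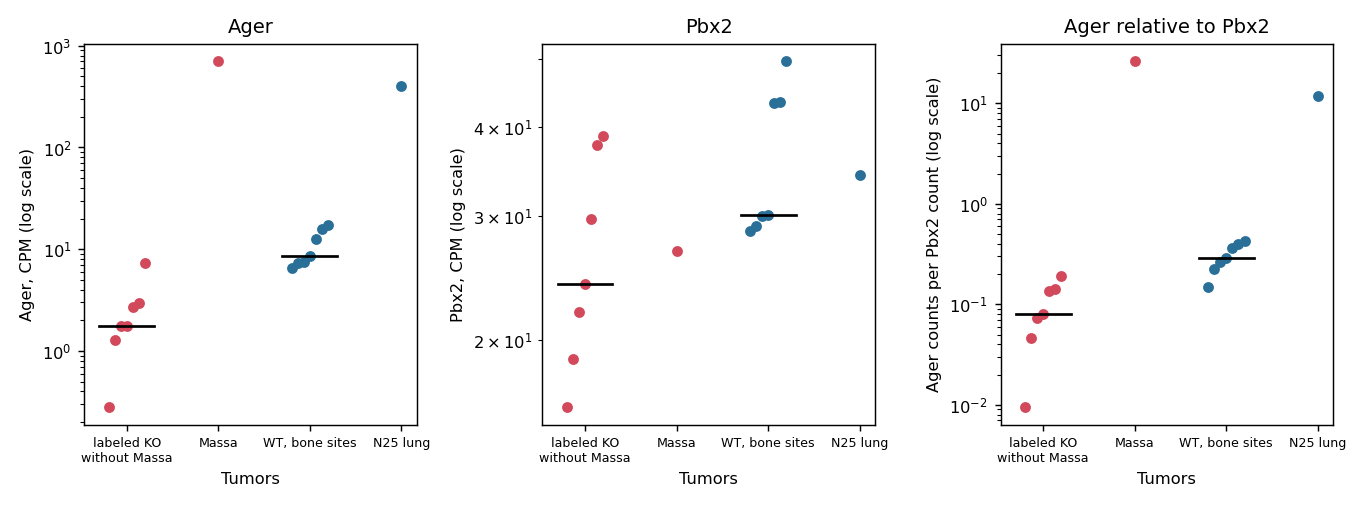
*Ager* (left, CPM), its upstream neighbor *Pbx2* (middle, CPM) and *Ager* counts per *Pbx2* count (right), all on log scales, 1 point per tumor, for the 7 KO tumors other than Massa, Massa, the 7 bone-site WT tumors and N25; bars are medians. *Ager* is at 401 CPM in N25 and 703 CPM in Massa, while *Pbx2* is at 34.2 and 26.8 CPM there.

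The counts of *Cyp2f2* and *Sftpd* in Prince stood with genes of another organ. In Prince 14 listed salivary gland genes summed to 209807 CPM, led by *Egf* and *Mucl2*, against at most 785 CPM in the other KO tumors and 46.2 CPM at bone sites. The 2 members were at 424 and 1.41 CPM there, while *Sftpc*, *Sftpb*, *Sftpa1*, *Lamp3*, *Scgb1a1*, *Scgb3a2* and *Nkx2-1* all had 0 counts, which allows up to 0.249 CPM. The part of salivary gland tissue in these counts was not tested.

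The genes whose log2 CPM across the 16 tumors was most like that of the summed alveolar genes were *2010001K21Rik*, *Shh*, *S100g*, *Cxcl15*, *Sfta2*, *Cldn18*, *Cckar*, *Sec14l3*, *Drc7* and *Ttll6* (Pearson r from 0.951 to 0.940, n = 16 tumors). These 10 genes had at most 3 counts in any tumor other than N25 and Massa, so the likeness rests on those 2 tumors. *Cxcl15* encodes lungkine, a chemokine of lung epithelium, and had 8323 counts in N25 and 176 in Massa. *Cldn18*, a tight junction gene, had 4632 and 348. The 10 genes most like the summed club genes were *Gpx2*, *Wfdc2*, *Ccdc17*, *Gsta2*, *Slc6a14*, *Tspan1*, *Adam28*, *Mal2*, *Slc34a2* and *Macc1* (r from 0.9504 to 0.937). For all 10 of these the highest of the other 14 tumors was Prince, whose club sum is *Cyp2f2* alone, with 18 to 590 counts. These correlations share the depth and makeup of 3 tumors and are given as a description.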

How the data were processed

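RNA of 16 tumors was sequenced after removal of ribosomal RNA (short reads, Illumina HiSeq). According to the paper and the submitters' processing notes, reads were aligned to mm10 with Novoalign (2.08.01), allowing multiple alignments and keeping the best, and counted on Ensembl genes with USeq. The deposited values are raw counts per gene, without normalization by the authors. Use of strand in the counting is not given in the sources used here.

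Counts were scaled with TMM and tested with edgeR (4.0.16; quasi-likelihood test, two-sided, filterByExpr with a minimum count of 10, Benjamini-Hochberg adjustment over all genes tested, threshold 0.05). DESeq2 (1.42.0), limma-voom (limma 3.58.1) with mouse as random effect, other size factors, no filter, counts summed per mouse, and fits without single tumors were alternatives. Intervals were exact, and floors were 3 counts per library. Intervals and floors cover counting error only. Gene positions came from GENCODE annotation of GRCm38 and promoters from RefSeq, and 6 of 10 members had one. The fits were tested on simulated data.

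The members and gene lists were chosen with earlier results of these data known. Genes named beside the members are at most the 4 most abundant of each list, the 10 most like the alveolar sum and the 10 most like the club sum. Also named, after the values were seen, are *Alpl*, *Bpifa1*, *Ccl17*, *Iyd*, *Krt19*, *Pbx2*, *Plin2* and *Sp7*. Samples were grouped by genotype, and for WT by site, as in the labels. No batch is given in the labels. WT tumors of 1 mouse are not independent, so p-values over tumors do not measure the spread between mice and can be too small.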

Additional observations from a re-analysis of the deposited data

Results flagged for a closer look

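Each of the 10 genes was examined for a single tumor far from the rest of its group of 8, by the gap of the extreme tumor to its nearest neighbor as a share of the range of the group in CPM. Chance flags about 1 in 20 groups. Both tumors had been singled out for these genes beforehand, so the values below describe how far they lay from the others and are no test. Of the 20 gene and group pairs 19 stood out, 10 for N25 in WT and 9 for Massa in KO.

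In N25 the gap took 1.00 of the range for *Sftpc* (0.999958), *Sftpb* (0.999856), *Sftpa1* (0.998871), *Sftpd* (1.0), *Lamp3* (0.999125), *Scgb1a1* (0.999982), *Scgb3a2* (0.999978), *Cyp2f2* (0.999275) and *Nkx2-1* (1.0), and 0.973 (0.972795) for *Ager*. In Massa it took 0.999582 for *Sftpc*, 0.998323 for *Sftpb*, 0.998917 for *Sftpa1*, 0.990962 for *Sftpd*, 0.998874 for *Lamp3*, 0.989874 for *Ager*, 0.999024 for *Scgb1a1*, 0.975429 for *Scgb3a2* and 1.0 for *Nkx2-1*. *Cyp2f2* in KO did not stand out, since Prince lay beside Massa.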

How the results depend on the processing

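No paired analysis was possible because no mouse gave tumors to both groups. Of 110 alternative values of the 10 members for lung against bone site, 109 kept their direction and their side of the threshold, and the exception was *Sftpa1* with counts summed per mouse (adjusted p = 0.0565). Members called there were 10 when any bone-site tumor was left out, but 7 of them passed the filter only through N25 and had to differ, so this is no sign of stability. Genes called there were 1658, against 2526 with DESeq2, 180 per mouse and 1203 to 2979 when 1 bone-site tumor was left out, with 2979 without N215. For KO against WT, 618 genes were called, against 2517 with DESeq2, 10 per mouse, 17 with limma-voom, 1111 without N25 and Massa, 9 per mouse without both (added after seeing the data), and 252 to 1348 when 1 tumor was left out (1348 without Zelda, 964 without Massa, and 252 to 371 without Oregon or any tumor of N42 or N43). Members called were 0, but 1 (*Ager*) with DESeq2 and without N25 and Massa, and 0 to 1 when 1 tumor was left out.

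The log2 fold change of *Ager* in KO reversed in 7 of 25 alternatives: −1.94 with DESeq2, −0.33 per mouse (adjusted p = 0.98), −2.75 with limma-voom (adjusted p = 0.545), −2.07 without N25 and Massa, −1.81 per mouse without both, −2.31 as the difference of means over the other 14 tumors, and −4.53 without Massa alone. When 1 tumor was left out it ran from −4.53 to 2.99, and it was negative only without Massa. The range over its adjusted p was 0.000861 to 0.98. The club share moved from 79.2% in N25 to 89.6%, 91.5% and 76.4%, and from 40.4% in Massa to 54.2%, 65.5% and 37.6%, without *Sftpa1*, *Sftpb* and *Sftpd*, per kilobase and without *Cyp2f2*. The cause of these changes was not tested. The depth of Massa limits all its genes with few counts.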

Other observations

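Some genes of other cells of the lung were higher in N25 than at bone sites. Of 18 alveolar capillary genes, 9 were called higher in N25 than at bone sites by edgeR, beside 7.23% of all genes, and none lower. *Calcrl*, a receptor gene of the endothelium, rose by 4.66 on the log2 scale (standard error 0.294) and *Vwf* by 4.49 (standard error 0.487). The list summed to 3342 CPM in N25 and 2804 CPM in Massa, against 286 to 450 CPM at bone sites and 213 to 738 CPM in the other KO tumors. Of 18 lung fibroblast genes, 5 were called higher, beside 7.23% of all genes, and none lower. Of these 18 genes, 2 passed the filter only through N25 and so had to differ. *Inmt*, an N-methyltransferase abundant in lung stroma, had 10485 counts in N25 and 996 in Massa, and was at most at 10.6 CPM at bone sites. Per alveolar count, the median of Massa over N25 was 0.740 for the capillary and 0.935 for the fibroblast list, beside 0.718 for all genes.

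Of 15 alveolar macrophage genes tested, 5 were called higher in N25, beside 7.23% of all genes, and none lower. *Krt19*, 1 of these 5, is also in the list of genes of epithelial cells in general. Of the alveolar macrophage list, 4 genes passed the filter only through N25 and so had to differ. The summed level of the list did not stand out: it was 488 CPM in N25 and 560 CPM in Massa, inside the 214.6 to 747 CPM of bone sites and the 137 to 795 CPM of the other KO tumors. The sum of 15 osteoblast genes was 3551 CPM in N25, below the 5685 to 94588 CPM of bone sites, and 3801 CPM in Massa, inside the 856 to 64374 CPM of the other KO tumors. Of these genes 2 (*Alpl* and *Sp7*) were called lower in N25, beside 0.584% of all genes, and the others did not pass the test (*Col1a1* log2 fold change −4.26, adjusted p = 0.218). *Sp7*, the gene of osterix, named after its value was seen, had 85 counts in N25 and 0 in Massa. In KO against WT, edgeR called 4.01% of all genes. It called 0 of 14 type I, 0 of 9 type II, 0 of 8 club, 0 of 5 ciliated and 0 of 18 capillary genes tested, and 1 of 7 alveolar macrophage (*Mrc1*) and 1 of 13 lung fibroblast genes (*Plin2*), both lower in KO.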
